A study of Rattus norvegicus with 10 samples.

Results

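The lysosomal cathepsins described here are 10 protease genes, Ctss, Ctsa, Ctsb, Ctsc, Ctsd, Ctsf, Ctsh, Ctsk, Ctsl and Ctsz, taken by gene name from a table of 30560 genes. The set was chosen by the Ctss values of these libraries, being built around Ctss because it was higher in treated ganglia. All 10 had a row, and all 10 passed the filter on low counts, as did 15186 genes in all. RNA was sequenced from L6 dorsal root ganglia, which hold the cell bodies of sensory neurons, of Sprague Dawley rats aged 7 to 8 weeks with an implanted lumbar intrathecal catheter. The control group was 5 samples from rats given PBS (0 mg of siRNA), and the treated group was 5 samples from rats that received SCN9A_2544 at 0.75 mg, a divalent small interfering RNA directed at the sodium channel gene Scn9a. Both groups carry the label 14 days, both had catheter surgery and meloxicam, and no group given another siRNA was analysed here. The study asked how specific SCN9A_2544 is.

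Cathepsins are proteases that are made as inactive precursors, sorted to the lysosome and activated there by removal of a propeptide. Most are cysteine proteases of the papain type, while cathepsin D is an aspartic protease and cathepsin A a serine carboxypeptidase. Macrophages are rich in several of them, and cathepsin S is known in sensory ganglia and spinal cord as an enzyme of macrophages and microglia that can release the chemokine fractalkine from neurons. Cathepsin S keeps its activity at neutral pH and also trims the invariant chain during antigen presentation.

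The 250 bases before the start of 4 of the genes are shown, each of which holds a motif that was searched. Ctsc, whose window is not shown, also holds one. They come from RefSeq on the rat build GRCr8, where 9 of the 10 genes had an entry, and they are written 5′ to 3′ on the strand of the gene. The windows are chr2:185775146-185775395 for Ctss (plus strand), chr2:185747298-185747547 for Ctsk (plus strand), chr1:206968822-206969071 for Ctsd (minus strand) and chr1:211581919-211582168 for Ctsf (plus strand). Capitals mark matches to the motifs searched on both strands.
Ctss: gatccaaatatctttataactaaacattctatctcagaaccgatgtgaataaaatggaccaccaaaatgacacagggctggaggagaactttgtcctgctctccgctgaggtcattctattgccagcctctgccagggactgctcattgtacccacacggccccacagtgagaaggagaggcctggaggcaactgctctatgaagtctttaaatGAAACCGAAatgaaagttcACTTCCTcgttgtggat
Ctsk: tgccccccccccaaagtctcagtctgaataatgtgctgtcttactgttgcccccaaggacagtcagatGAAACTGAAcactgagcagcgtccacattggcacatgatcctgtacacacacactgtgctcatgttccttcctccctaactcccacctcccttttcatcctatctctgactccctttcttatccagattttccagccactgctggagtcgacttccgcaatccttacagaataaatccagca
Ctsd: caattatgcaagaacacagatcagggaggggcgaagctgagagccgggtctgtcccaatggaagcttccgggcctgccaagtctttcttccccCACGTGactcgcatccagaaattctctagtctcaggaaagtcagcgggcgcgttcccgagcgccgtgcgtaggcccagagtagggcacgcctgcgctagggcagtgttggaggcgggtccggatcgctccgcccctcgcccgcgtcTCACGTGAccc
Ctsf: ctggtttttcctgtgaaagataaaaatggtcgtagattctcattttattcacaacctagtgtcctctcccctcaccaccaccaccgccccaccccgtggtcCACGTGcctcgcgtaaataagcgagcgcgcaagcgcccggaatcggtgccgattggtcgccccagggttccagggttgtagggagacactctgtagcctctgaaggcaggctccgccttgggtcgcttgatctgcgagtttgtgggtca

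The searched motifs were the E-box core CACGTG, its longer form TCACGTGA, the ETS and PU.1 type core AGGAAGT and the interferon regulatory factor type repeat GAAANNGAA. The core CACGTG, which the lysosomal regulator TFEB can bind, was in the windows of Ctsd (157 and 10 bases before the start) and Ctsf (149 bases before). It was in 5.59% of all 33469 promoter windows of this length. The longer form TCACGTGA was in the Ctsd window, 11 bases before the start and over the second core there, and in 0.657% of all windows. AGGAAGT was on the minus strand in the windows of Ctss, 17 bases before the start, and Ctsc, 248 bases before, and in 7.08% of all windows. GAAANNGAA was 36 bases before the start of Ctss and 182 bases before that of Ctsk, and in 8.12% of all windows. Ctsk and Ctss are neighbouring named coding genes on chromosome 2, and both windows hold the GAAANNGAA repeat. These matches describe letters only and were not tested as binding sites.

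Libraries held between 11832376 and 15420006 counts. Scn9a, the target, was at 175 ± 50.2 CPM (counts scaled to library size, SD, n = 5) in PBS and 85.4 ± 23.9 in treated libraries, and the groups did not overlap. Libraries also differed in their cell type markers within both groups. The mean level of 20 pan-neuronal markers ran from 8.32 to 9.77 log2 CPM, with the lowest values in treated replicate 3 (8.32), PBS replicate 3 (8.54) and PBS replicate 5 (8.91). The mean of 20 Schwann cell and myelin markers ran the other way, from 7.73 to 9.79 log2 CPM, with those same 3 libraries highest at 9.79, 9.71 and 9.47. They are called the 3 libraries poorest in neuronal markers. In a bulk sample, fewer cells of a type and less RNA per cell cannot be told apart.

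Ctss (ENSRNOG00000021157) was at 19.0, 20.4, 26.5, 23.3 and 19.0 CPM in PBS replicates 1 to 5 and at 33.6, 31.7, 44.7, 59.3 and 30.6 CPM in treated replicates 1 to 5. Every treated library lay above every PBS library, with treated replicates 4 and 3 the highest. The means were 21.6 ± 3.25 and 40.0 ± 12.2 CPM (SD, n = 5 each), a log2 fold change of 0.89 (SE 0.20, 95% interval 0.45 to 1.32), or 1.85-fold. Because this contrast chose the gene, these values are a description and carry no test. Ctss was the 1 gene of the 10 whose groups did not overlap, against 0.665% of all tested genes (69 higher and 32 lower), a comparison from which nothing is read because the choice used it.

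**Figure D1:**
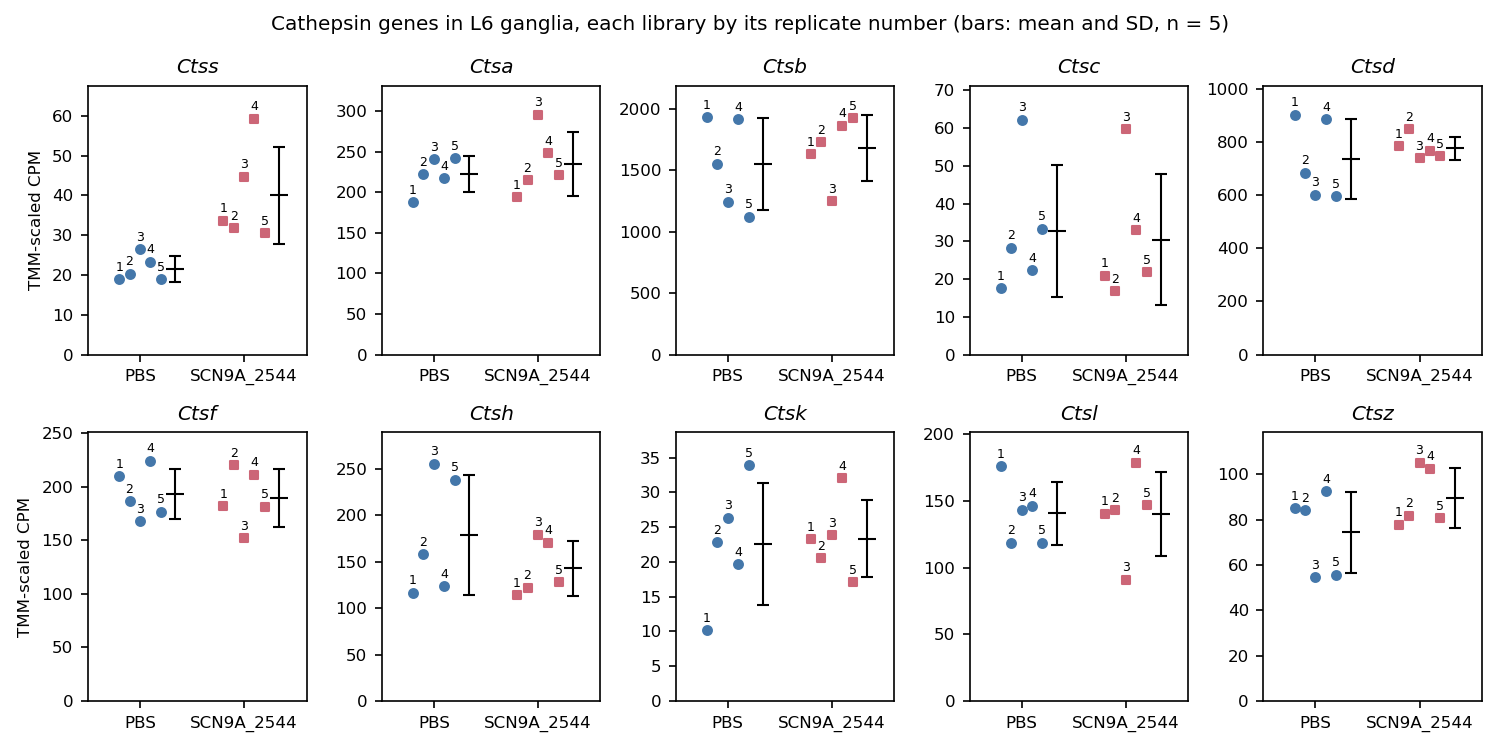
TMM-scaled CPM of each cathepsin gene (y axis, 1 panel a gene) in the PBS and SCN9A_2544 libraries (x axis), with points numbered by replicate and bars showing mean and SD (n = 5). In Ctss the treated libraries, 30.6 to 59.3 CPM, all lie above the PBS libraries, 19.0 to 26.5 CPM, and in the other panels the groups overlap.

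The other 7 cysteine cathepsins gave overlapping groups. Ctsb, an endopeptidase that also trims dipeptides from carboxyl ends, was at 1934, 1555, 1247, 1919 and 1123 CPM in PBS replicates 1 to 5 and 1635, 1729, 1248, 1865 and 1926 CPM in treated replicates 1 to 5. Its low libraries were the 3 poorest in neuronal markers, and its log2 fold change was 0.11 (SE 0.20, interval -0.33 to 0.56). Ctsl, an endopeptidase with broad activity, averaged 141 ± 23.8 CPM in the PBS group and 140 ± 31.4 CPM in the treated group (log2 fold change -0.01, interval -0.41 to 0.39). Ctsf was at 193 ± 23.5 and 189 ± 27.0 CPM (log2 fold change -0.03, interval -0.33 to 0.28). For Ctsl and Ctsf the group means were close beside an SD of more than 20 CPM in each group.

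Ctsc, the dipeptidyl peptidase that activates granule serine proteases, was at 17.6, 28.3, 62.2, 22.3 and 33.4 CPM in PBS replicates 1 to 5 and 20.9, 16.7, 59.8, 33.0 and 21.9 CPM in treated replicates 1 to 5. Replicate 3 of each group stood far above the rest, and the log2 fold change of -0.11 had a wide interval (-0.97 to 0.76). It was 0.26 without PBS replicate 3 and -0.54 without treated replicate 3, so its direction turned on 1 library. Ctsh, an aminopeptidase, was at 117, 158, 256, 124 and 238 CPM in PBS and 114, 122, 179, 171 and 128 CPM in treated replicates 1 to 5 (log2 fold change -0.32, interval -0.85 to 0.21). Its highest values, too, were in PBS replicates 3 and 5 and treated replicate 3. Ctsz, a carboxypeptidase, averaged 74.4 ± 17.9 CPM in the PBS group and 89.5 ± 13.1 CPM in the treated group (log2 fold change 0.27, interval -0.12 to 0.66). The 2 lowest libraries for Ctsz were PBS replicates 3 and 5 (54.5 and 55.7 CPM), while treated replicate 3 was the highest (105 CPM).

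Ctsk, the collagen-degrading cathepsin best known from osteoclasts, was at 10.2, 22.9, 26.3, 19.6 and 33.9 CPM in PBS replicates 1 to 5 and 23.3, 20.5, 23.8, 32.0 and 17.1 CPM in treated replicates 1 to 5. PBS replicates 1 and 5 were its lowest and highest libraries, so the PBS group covered the whole treated range (log2 fold change 0.05, interval -0.56 to 0.65). Ctsk lies beside Ctss on chromosome 2.

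The 2 genes of other protease classes also overlapped between groups. Ctsd, the main aspartic protease of the lysosome, was at 902, 684, 601, 886 and 597 CPM in PBS replicates 1 to 5 and 784, 846, 738, 767 and 746 CPM in treated replicates 1 to 5. The PBS libraries spread on both sides of all treated libraries (log2 fold change 0.08, interval -0.27 to 0.43). Ctsa, whose product also protects the lysosomal enzymes beta-galactosidase and neuraminidase 1, averaged 222 ± 22.1 CPM in the PBS group and 235 ± 39.1 CPM in the treated group (log2 fold change 0.08, interval -0.23 to 0.39).

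Over the 10 genes, 6 fold changes were above 0 with a median of 0.06, beside 53.4% above 0 and a median of 0.02 over all tested genes. No cathepsin passed an adjusted p of 0.05 by edgeR, where 0% of 15186 genes did, or by DESeq2, where 0.0945% did (17 of 17984). At an unadjusted p under 0.05 there was 1 cathepsin, Ctss, beside 4.23% of genes (642), and nothing is read from this count either, since the choice used the Ctss contrast. The summed cathepsin level was 3175 ± 476 CPM in the PBS group and 3347 ± 283 CPM in the treated group. Ctsb counts made up 48.5 ± 4.77% of that sum in PBS and 49.97 ± 4.58% in treated libraries, shares that are not corrected for transcript length.

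**Figure D2:**
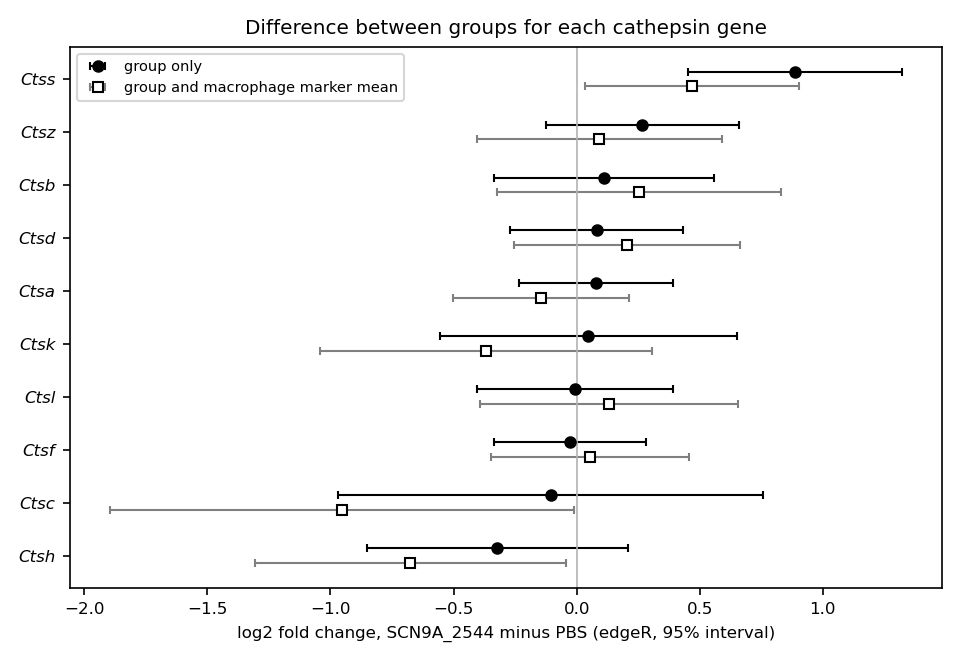
Log2 fold change of each cathepsin gene (x axis, SCN9A_2544 minus PBS, 95% interval), from the model with group alone (filled circles) and with the macrophage marker mean added (open squares). Ctss lies at 0.89 and 0.47, and the group-only intervals of the other 9 genes span 0. With the macrophage marker mean added, the intervals of Ctsc and Ctsh lie below 0. With the pan-neuronal mean added instead (not drawn), both intervals span 0.

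Most macrophage markers also had higher values in the treated libraries, though 0 passed the adjusted edgeR test. By edgeR 10 had an unadjusted p under 0.05, beside 4.23% of all tested genes. DESeq2 called 1 macrophage marker, C1qa (adjusted p = 0.0130), beside 0.0945% of genes. Of 25 tested markers 22 had a fold change above 0, with a median of 0.41, and none was at 0 in all libraries. Their summed level ranged over 583 to 859 CPM in PBS libraries and 632 to 1179 CPM after treatment. Groups did not overlap for 6 of these markers, beside 0.665% of all tested genes. Among the 6 were the complement genes C1qa (log2 fold change 1.03), C1qb (0.99) and C1qc (0.96). The lysosomal glycoprotein gene Gpnmb (1.02, and 0.60 without treated replicate 3) was another. On the log2 CPM scale the markers averaged 3.63 ± 0.22 in the PBS group and 4.07 ± 0.37 in the treated group. The groups overlapped for this mean. Treated replicates 1, 2 and 5 (3.86, 3.73 and 3.81) lay below PBS replicate 2 (3.93). Treated replicates 4 and 3, the highest for Ctss, were also the highest for this mean (4.51 and 4.44).

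Glial markers stood beside the Ctss values as well. Of 13 tested satellite glia markers 10 had a fold change above 0. An edgeR unadjusted p under 0.05 was found for 3, beside 4.23% of all tested genes. The mean of the satellite glia markers was 6.44 ± 0.12 log2 CPM in the PBS group and 6.73 ± 0.07 in the treated group. Their summed level covered 4100 to 5641 CPM in PBS libraries and 5355 to 6484 CPM after treatment. Of 10 named central glia markers 4 were tested, and all 4 were above 0. Tmem119, a microglial gene at a low level, averaged 2.06 ± 0.17 CPM in the PBS group and 3.46 ± 0.94 CPM in the treated group, with no overlap. P2ry12, also a microglial gene, had a log2 fold change of 0.07, and -0.13 without treated replicate 3. For Gfap these values were 0.31 and -0.13. None of these passed the adjusted edgeR test, and their part in the Ctss difference was not tested.

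With group held in the model, Ctss had a slope of 0.83 log2 units per log2 unit of the macrophage mean (SE 0.27, interval 0.24 to 1.43, edgeR unadjusted p = 0.0105), but the adjusted p was 0.485. Over 16 alternatives the Ctss slope ran from 0.43 with a replicate block to 1.01 without PBS replicate 2. It was 0.54 without treated replicate 4. Ctsc had a slope of 1.65 (SE 0.60, adjusted p = 0.485). The Ctsc slope ran from 0.47 with the pan-neuronal mean also in the model to 2.08 without treated replicate 4. No cathepsin passed the adjusted threshold, as 0% of the 15161 genes did. At an unadjusted p under 0.05 there were 1371 genes, among them these 2 cathepsins, and limma voom passed 0 genes at an adjusted p. With the macrophage mean in the model, the Ctss fold change between groups was 0.47 (SE 0.20, interval 0.04 to 0.91), against 0.89 without it. The Ctss level minus the macrophage mean, in log2 units, was 0.80 ± 0.28 in PBS (0.42 to 1.11) and 1.21 ± 0.13 in treated libraries (1.05 to 1.38), and these ranges overlapped. The part of the macrophage markers in the Ctss difference was not tested beyond these values.

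The same adjustment lowered the values of Ctsa, Ctsc, Ctsh, Ctsk and Ctsz as well, and raised those of Ctsb, Ctsd, Ctsf and Ctsl. With the macrophage mean in the model the log2 fold change was -0.95 for Ctsc (interval -1.90 to -0.01), against -0.11 without it. For Ctsh it was -0.67 (interval -1.31 to -0.04), against -0.32, and for Ctsk -0.37 (interval -1.04 to 0.31), against 0.05. With the pan-neuronal mean instead, Ctsc was at -0.03 (interval -0.34 to 0.27) and Ctsh at -0.22 (interval -0.50 to 0.07). The Schwann cell and myelin mean gave 0.06 and -0.16, with both intervals spanning 0. The fibroblast mean gave -0.26 (interval -0.93 to 0.41) and -0.41 (interval -0.74 to -0.08). Without the 3 libraries poorest in neuronal markers and with group alone, the values were -0.0008 and -0.02. All these values are descriptions. For Ctss, the pan-neuronal mean, the Schwann cell and myelin mean and the fibroblast mean gave 0.90, 0.92 and 0.81 in the same place. Without the 3 libraries poorest in neuronal markers the Ctss value was 0.87, and without treated replicate 4 it was 0.70.

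Within groups, the cathepsins split by how they followed the pan-neuronal mean, a measure that the choice of genes did not use. In the edgeR fit with group in the model, Ctsc fell most steeply, by a slope of -1.22 (SE 0.13, adjusted p = 4.27e-05). Ctsh (-0.69, SE 0.13, adjusted p = 0.00148) and Ctsa (-0.31, SE 0.08, adjusted p = 0.0118) also fell. Ctsb (0.48, SE 0.11, adjusted p = 0.00487) and Ctsf (0.30, SE 0.09, adjusted p = 0.0187) rose with it. So 3 cathepsins fell, beside 20.7% of the 15166 genes, and 2 rose, beside 21.9%, and neither count is far from what those shares would give for 10 genes. The remaining slopes did not pass: they were 0.28 for Ctsd, whose adjusted p of 0.050002 was just above the threshold, 0.35 for Ctsl, -0.46 for Ctsk, -0.25 for Ctss (interval -0.64 to 0.14) and 0.12 for Ctsz.

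Whether these slopes passed the threshold depended on the 3 libraries poorest in neuronal markers. Without those 3 libraries 82 genes passed instead of 6468, and 0 cathepsins passed. The slopes then were -1.70 for Ctsc (adjusted p = 0.142), -1.25 for Ctsh (0.115), -0.57 for Ctsa (0.404), 0.22 for Ctsb (0.823) and 0.21 for Ctsf (0.813), so the direction was the same in all 5. The slopes of Ctsc, Ctsh and Ctsa were steeper than with all libraries, and those of Ctsb and Ctsf were shallower. In CPM, Ctsc and Ctsh were high and Ctsb low in those libraries, as their values by replicate above show.

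The Schwann cell and myelin mean gave slopes of opposite sign for all 10 genes, and it is not separate evidence, since it varied against the pan-neuronal mean over the same libraries. Ctsc (0.83, adjusted p = 0.000332), Ctsh (0.50, adjusted p = 0.000845) and Ctsa (0.23, adjusted p = 0.0106) rose with it, 3 genes beside 19.4% of all. Ctsb (-0.34, adjusted p = 0.00780), Ctsd (-0.22, adjusted p = 0.0276), Ctsf (-0.19, adjusted p = 0.0467) and Ctsl (-0.26, adjusted p = 0.0494) fell, 4 genes beside 20.7%. Without the 3 libraries 0 cathepsins and 205 genes passed, against 7 and 6080 with them, and 4 cathepsins passed without PBS replicate 1, 4 or 5. With shares this high among all genes, the counts show nothing particular to cathepsins, and the direction of each gene is what differs among them.

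**Figure D3:**
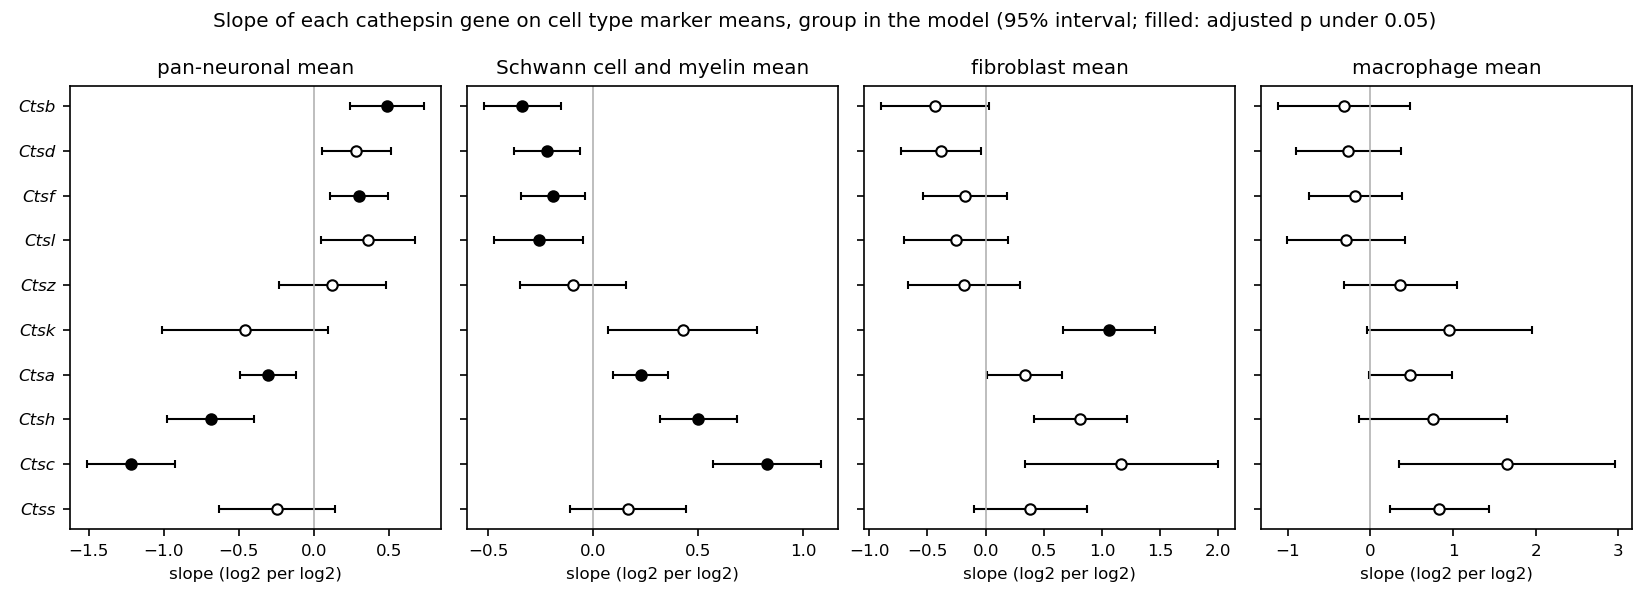
Slope of each cathepsin gene (x axis, log2 CPM per log2 unit of the marker mean, 95% interval) on the pan-neuronal, Schwann cell and myelin, fibroblast and macrophage means, with group in the model. Filled points passed an adjusted p of 0.05: 5 for the pan-neuronal mean, 7 for Schwann cell and myelin, 1 (Ctsk) for fibroblast and 0 for macrophage.

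Ctsk was the 1 cathepsin that followed the fibroblast mean, which covers 17 genes, among them collagen genes. Its slope was 1.06 (SE 0.18, interval 0.67 to 1.46, edgeR adjusted p = 0.0294), among 1.03% of 15169 genes that rose with this mean, while 0.0264% fell. Ctsh (0.81, adjusted p = 0.0553) and Ctsc (1.17, adjusted p = 0.127) had slopes above 0 that did not pass. PBS replicate 1, lowest for Ctsk at 10.2 CPM, was also lowest for the fibroblast mean (5.63 log2 CPM). PBS replicate 5 and treated replicate 4, highest for Ctsk, were highest for the mean (7.08 and 7.09).

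The Ctsk slope ran from 0.92 to 1.45 over 16 alternatives and passed in 8 of them. Without PBS replicate 1 it was 0.92 with an adjusted p of 0.142, and without PBS replicate 5 it was 1.00 with an adjusted p of 0.158. It also missed the threshold without PBS replicate 2 (0.0570), treated replicate 1 (0.0520) or treated replicate 2 (0.0714), and without the 3 libraries poorest in neuronal markers (slope 1.02, adjusted p = 0.148). With the pan-neuronal mean also in the model the slope was 1.19 and the adjusted p 0.0896.

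**Figure D4:**
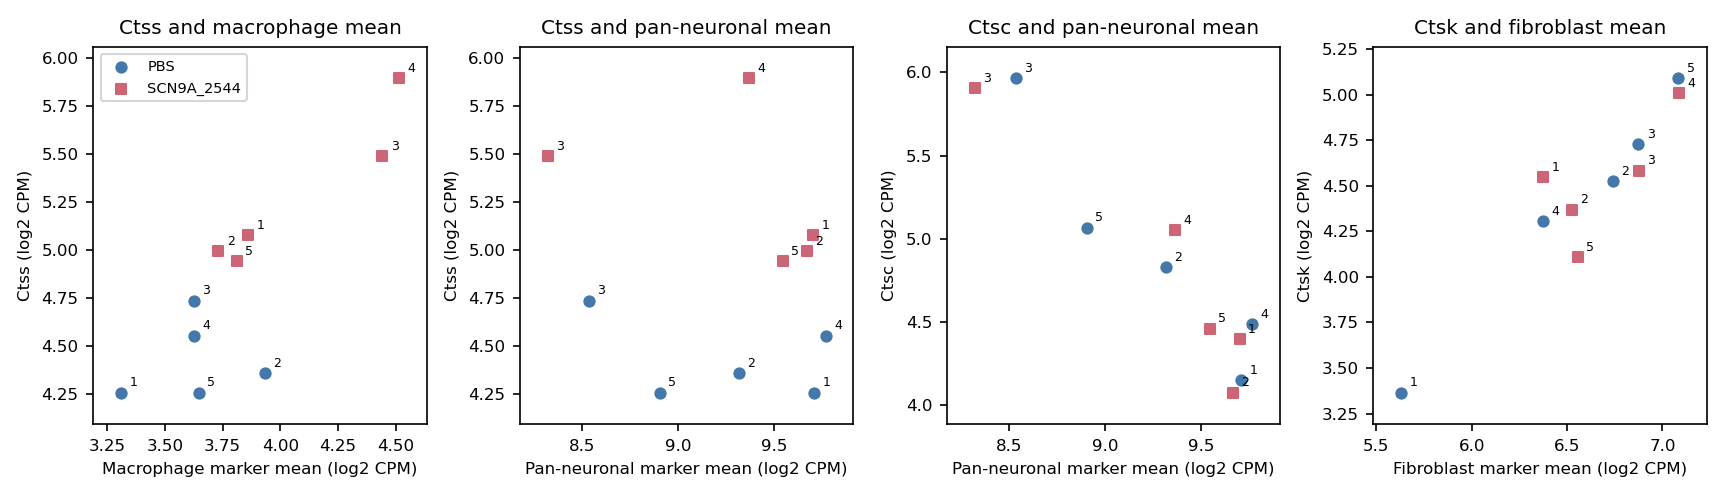
Level of Ctss, Ctsc or Ctsk (y axis, log2 CPM) against a cell type marker mean (x axis, log2 CPM) in each library, with circles for PBS, squares for SCN9A_2544 and numbers for replicates. Ctss and the macrophage mean are both highest in treated replicates 4 and 3, Ctsc is highest in replicate 3 of each group, the 2 libraries with the lowest pan-neuronal mean, and Ctsk and the fibroblast mean are both lowest in PBS replicate 1.

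Pairs of cathepsins were compared after each group's mean was removed, over 10 libraries, with two-sided exact permutation within groups (14400 arrangements) and adjustment over 45 pairs. Ctsc, Ctsh and Ctsa varied together. Pearson's r was 0.87 for Ctsc and Ctsh (exact permutation p = 0.000278, adjusted 0.00625, Spearman's rho 0.90, p = 0.000486, adjusted 0.0109). For Ctsa and Ctsh r was 0.80 (exact permutation p = 0.000139, adjusted 0.00625, rho 0.85, p = 0.000208, adjusted 0.00938), and for Ctsa and Ctsc it was 0.87 (exact permutation p = 0.00188, adjusted 0.0281, rho 0.87, p = 0.00278, adjusted 0.0307). With the 2 libraries most distant on the first gene of the pair left out, the 3 r values were 0.87, 0.88 and 0.86, and without the 3 libraries poorest in neuronal markers they were 0.90, 0.87 and 0.78.

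Ctsd and Ctsf had an r of 0.74 (exact permutation adjusted p = 0.0375), with a rho of 0.73 that did not pass (adjusted p = 0.0555). Without the 2 libraries most distant on Ctsd r was 0.66, and without the 3 libraries poorest in neuronal markers it was 0.72. Ctsb had a higher r with each of them, 0.81, that did not pass (exact permutation adjusted p = 0.0651 with Ctsf and 0.0714 with Ctsd). In all, 4 pairs passed on r, 3 of them on rho as well, and 0 negative pairs passed on r. On rho 3 negative pairs passed, all with Ctsd and each with an exact permutation adjusted p of 0.0307. They were Ctsd with Ctsh (rho -0.92, r -0.88), Ctsc (rho -0.79, r -0.70) and Ctsa (rho -0.75, r -0.57). Without the 3 libraries poorest in neuronal markers these r values were -0.65, -0.67 and -0.44. Ctsd also had a pan-neuronal slope opposite in sign to those of Ctsh, Ctsc and Ctsa, whose part in these pairs was not tested. Ctss passed with no other cathepsin. Its r with its neighbour Ctsk was 0.47 (exact permutation adjusted p = 0.189), and its highest r was 0.64, with Ctsc (exact permutation adjusted p = 0.131).

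The genes most like a cathepsin over the 10 libraries, by r of group-centred log2 CPM among 11975 genes, are given as a description. For Ctss they were Ywhae (0.93), Xbp1 (0.92), Oprk1 (0.89), Rab31 (0.89) and Thg1l (0.88). For Ctsk they were Dab2 (0.97), Folr2 (0.96), Pdgfra (0.92), Pcolce (0.92) and Mmp2 (0.92), of which Pdgfra is one of the fibroblast markers used above and Folr2 is known from tissue macrophages. The slope of Ctsk on the macrophage mean was 0.96 (SE 0.45, edgeR unadjusted p = 0.0576, adjusted p = 0.485). For Ctsd they included Taf10 (0.97), Eif3g (0.96), Armc9 (0.96) and Dis3l (0.96). The libraries share their differences in neuronal and Schwann cell markers, which enter all these values.

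Of the other cathepsin genes, 3 passed the filter and had fold changes below 0. Ctso averaged 11.99 ± 3.03 CPM in the PBS group and 10.5 ± 1.16 CPM in the treated group. Ctsg, a granule serine protease of neutrophils and mast cells, was at 9.43 ± 7.08 and 6.66 ± 3.86 CPM, and Ctse, an aspartic protease, at 3.07 ± 1.59 and 2.77 ± 0.71 CPM. Ctsw, known from cytotoxic lymphocytes, had 64 counts over the 10 libraries and was not tested.

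A list of the cystatins, which block cysteine cathepsins, and of other protease inhibitors and related genes had 4 of 9 tested genes above 0. Its median log2 fold change was -0.19. Cst3, which encodes the secreted inhibitor cystatin C, was at 1201 ± 235 CPM in PBS and 976 ± 25.1 CPM after treatment (log2 fold change -0.30, interval -0.65 to 0.05), with 4 of 5 treated libraries below every PBS library. Cstb, a cytosolic inhibitor, was at 64.3 ± 11.3 and 53.4 ± 4.92 CPM (log2 fold change -0.27, interval -0.58 to 0.05). Both intervals span 0, and no inhibitor passed the adjusted test.

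Genes that act with the cathepsins in the lysosome had 7 of 8 fold changes above 0, with a median of 0.16. Lgmn, the legumain protease that processes cathepsin precursors, averaged 212 ± 60.5 CPM in the PBS group and 240 ± 44.6 CPM in the treated group (log2 fold change 0.17, interval -0.29 to 0.63). Neu1 and Glb1, the partners of cathepsin A, had log2 fold changes of 0.15 and 0.02, and Psap, a precursor of lipid-degrading cofactors, 0.08. Sorting receptors had 13 of 14 above 0 (median 0.12), led by Sorcs2 (0.58, and 0.32 without treated replicate 3) and Scarb2 (0.24). Other lysosomal hydrolases had 26 of 37 above 0 (median 0.11), while the proton pump of the lysosome had 6 of 15 (median -0.03) and lysosomal membrane genes 11 of 27 (median 0.00). None of these genes passed the adjusted edgeR test, as 0% of all genes did.

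A list of cathepsin substrates and partners had 13 of 17 above 0 and a median of 0.45. It covers partners of cathepsin S and antigen presentation genes, and also neutrophil granule genes, whose fold changes were below 0. Cx3cr1, the fractalkine receptor, averaged 8.42 ± 3.11 CPM in the PBS group and 15.8 ± 3.99 CPM in the treated group (log2 fold change 0.91, interval 0.34 to 1.49), and it is also one of the macrophage markers. The class II genes RT1-Da (log2 fold change 1.05, interval 0.05 to 2.04) and RT1-Db1 (log2 fold change 0.86, interval -0.17 to 1.90) and the invariant chain gene Cd74 (log2 fold change 0.79, interval -0.14 to 1.72) had wide intervals. Treated replicate 4 carried much of these values: without it they were 0.34, 0.18 and 0.22. In treated libraries Cd74 ran from 73.5 to 406 CPM, against 67.3 to 162 CPM in PBS, so the groups overlapped. Among regulators of lysosomal and class II genes, 9 of 12 were above 0 (median 0.18), with Ciita at 1.07 (0.56 without treated replicate 4) and Irf8 at 0.48 (0.18 without treated replicate 3), and 0 passed the adjusted test.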

How the data were processed

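The deposited values are estimated counts for each gene and each of the 10 libraries, with no normalization, and 11.6% to 12.4% of values were not whole. Per the labels' protocols, poly(A) RNA was sequenced as paired reads. The build mRatBN7.2, STAR 2.7.10a and DESeq2 1.44.0 are named in the submitters' processing notes. Which program estimated the counts, and with what strand setting, is not given in the sources used here. Genes are named as in the table, and no coordinates on that build are given. RefSeq promoters are on GRCr8.

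The design had assumed whole counts, so the estimated counts were rounded for the count tests. Genes were filtered with filterByExpr (minimum count 10, total 15) and scaled by TMM. The quasi-likelihood F-test of edgeR 4.0.16 (R 4.3.3) was run over 15186 genes with Benjamini-Hochberg adjustment and a threshold of 0.05. CPM are TMM-scaled, and log2 CPM use a prior count of 2. The SE is the fold change divided by the square root of F. Marker means are means of log2 CPM of a marker list that holds no cathepsin, and slopes are from models with group and 1 such mean, with the list's own genes left out. DESeq2 1.42.0 and limma 3.58.1 (voom) were alternatives. Other alternatives were scaling, no filter, each library left out, a replicate block, marker means as covariates and the 3 libraries of lowest pan-neuronal mean left out.

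Totals of 11832376 to 15420006 counts gave a median SE of 0.223 log2 units. A chi-square per gene between the 45 pairs of libraries ran from 7.70 to 218, so no library repeated another. Whether the samples are from separate animals is not in the labels. The p-values thus measure only how these samples vary, which may be technical. The members and lists were chosen with earlier results of these data known. Besides the 10 cathepsins, genes are named from the lists of other cathepsins, inhibitors and lysosomal partners, up to 4 of the smallest p from each other list, and the 5 genes most like Ctss, Ctsk and Ctsd with a mean of 5 CPM or more. A gene that this rule takes is not reported here.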

Additional observations from a re-analysis of the deposited data

How the results depend on the processing

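The Ctss fold change was above 0 in 20 of 20 alternatives, from 0.47 with the macrophage mean in the model to 0.97 without PBS replicate 3. That of Ctsh was below 0 in 20 of 20, from -0.67 with the macrophage mean in the model. It was only -0.02 (SE 0.17) without the 3 libraries poorest in neuronal markers. With the macrophage mean in the model Ctsa was at -0.14, against 0.08, and without the 3 libraries poorest in neuronal markers Ctsz was at -0.05, against 0.27. Between groups, where 0 genes passed in edgeR, 17 passed in DESeq2 and 1 with the pan-neuronal or the Schwann cell and myelin mean as covariate (Scn9a). Without the 3 libraries poorest in neuronal markers 1 passed (ENSRNOG00000070035), and with 1 library left out 0 to 1 (Stac2 or ENSRNOG00000070035); none was a cathepsin. For the macrophage mean (0 genes), 1 passed together with the pan-neuronal mean and 1 without those 3 libraries, Fam111a both times. These genes were named after their values were seen, and the marker fits without those 3 libraries and the values of other named genes with a library left out were chosen after seeing the data. For the pan-neuronal mean 6468 genes became 82 without the 3 libraries, and for Schwann cell and myelin 6080 became 205, and 3981 to 6022 with 1 library left out (3981 without treated replicate 3). For the fibroblast mean 160 became 245 without the filter, 5 together with the pan-neuronal mean, 0 without the 3 libraries and 0 to 837 with 1 library left out. Whether the numbers of the replicates pair the samples was not settled. The same-number r of deviations was -0.01 to 0.57, over 0.1 in 2 of 5 pairs. In PBS, 2 libraries were most like the treated library of their own number. Differences in neuronal markers enter these r values, so they cannot decide it. With a replicate block 0 genes passed between groups and for each of the 4 marker means, and the Ctss fold change was 0.85. The cause of these changes was not tested, except that fewer samples or residual degrees of freedom remain when libraries are left out or blocked. Ctsw, with 64 counts over the 10 libraries, was too low to test at this depth.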
